A study of Mus musculus with 10 samples.

Results

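Fatty acid oxidation and peroxisome genes were followed in RNA-seq of mouse kidney glomeruli, as a list of 40 genes among the 22053 gene identifiers of the deposited expression table. The rule lists the genes by name and uses no measured value, but the list was drawn up with earlier results of these data known, so it is not independent evidence of a direction. It holds 20 genes of mitochondrial fatty acid oxidation, 2 transcriptional regulators (Ppara and Ppargc1a), 8 enzymes of peroxisomal oxidation and 10 peroxins, the proteins that build peroxisomes. All 40 were found by symbol, and all 40 passed the filter on low values, a mean of at least 0.5 FPKM over the 10 libraries. FPKM counts fragments relative to transcript length and to the mapped fragments of the library, so levels of different genes can be set side by side.

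The study compared glomeruli of mice that are wild type for Col4a3 (5 libraries) with glomeruli of mice that carry Col4a3 p.G799R (5 libraries). Col4a3 encodes the alpha 3 chain of type IV collagen, a component of the glomerular basement membrane, and p.G799R replaces a glycine of that chain with arginine. The title of the series also names tauroursodeoxycholic acid, but the labels of these 10 libraries give no treatment. The labels do not state zygosity, strain, age, sex, the way glomeruli were isolated, or whether each library came from its own mouse, so the p-values measure the spread between libraries, which may be technical.

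In mitochondria, long-chain fatty acids enter as carnitine esters and are shortened by repeated rounds of dehydrogenation, hydration, a further dehydrogenation and thiolytic cleavage. Peroxisomes run a parallel chain with their own enzymes, which handles very long-chain, branched and dicarboxylic fatty acids. In the kidney these enzymes are best known from the proximal tubule, which covers most of its energy demand with fatty acids, and the nuclear receptor PPAR alpha with its coactivator PGC-1 alpha is a known activator of both chains.

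On the deposited FPKM scale, 31 of the 40 genes were lower in G799R, 1 was higher and 8 did not pass the test (limma on log2(FPKM + 1), Benjamini-Hochberg adjusted p under 0.05 over all 13117 genes tested). Over all tested genes 19.3% were called lower and 40.5% were called higher. By role, 20 of 20 mitochondrial genes, 2 of 2 regulators and 7 of 8 peroxisomal enzymes fell, whereas 2 of 10 peroxins fell and 1 rose. The median log2 difference, G799R minus wild type, was -0.89 for the mitochondrial genes, -1.596 for the regulators, -1.20 for the peroxisomal enzymes and -0.072 for the peroxins, beside 0.17 for all tested genes. In 29 of the 40 genes every G799R library lay below every wild-type library, and in 1 every G799R library lay above. The same held for 15.7% and 26.1% of all tested genes. These directions depend on the scale: with proximal tubule markers set equal in all libraries 0 of the 40 genes were called lower.

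**Figure D1:**
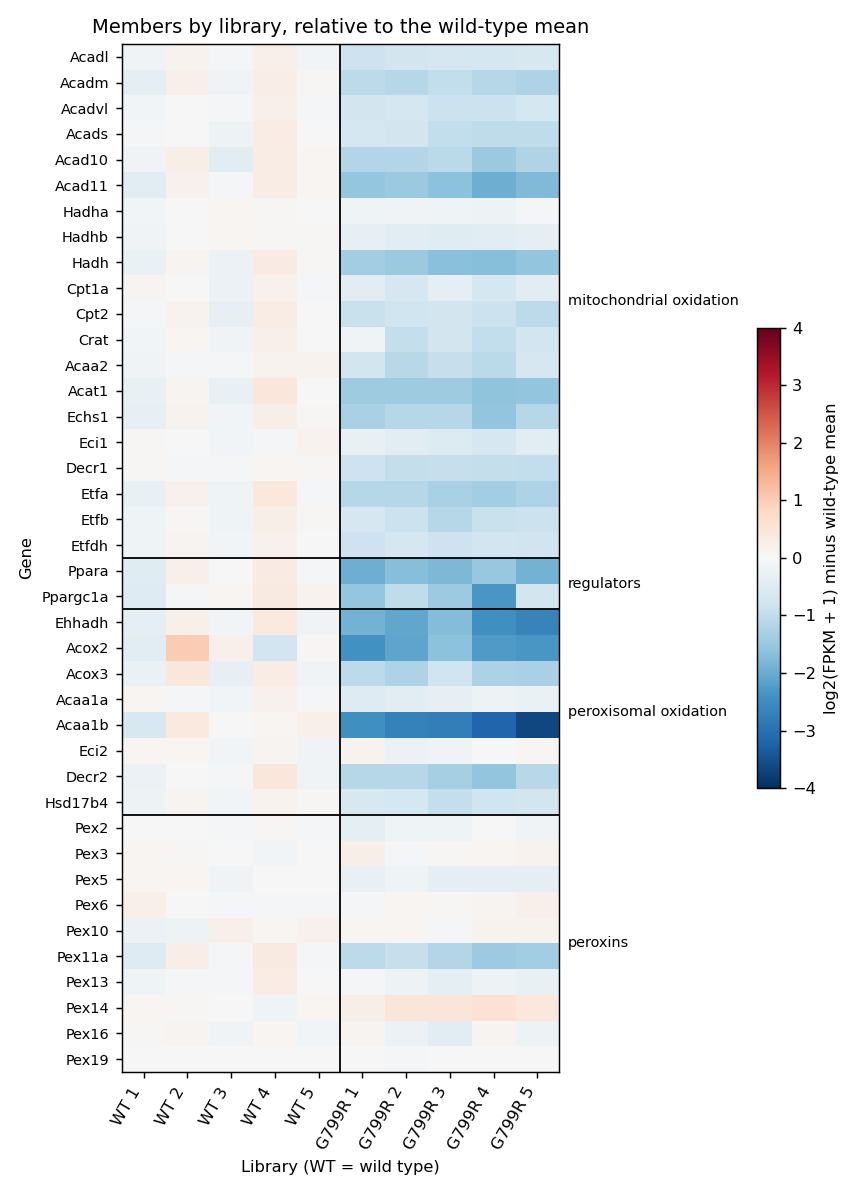
Rows are the 40 genes by role and columns the 10 libraries; colour is log2(FPKM + 1) minus the gene's wild-type mean, on the deposited scale. Most mitochondrial and peroxisomal enzymes are blue across the G799R libraries, with Acaa1b darkest, while Eci2, Hadha and most peroxins stay near 0 and Pex14 is red.

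Tubule markers moved in the same direction as the enzymes on the deposited scale. Of 35 proximal tubule markers 34 were lower in G799R (median log2 difference -2.75), with summed levels of 7813 to 14335 FPKM in wild type and 1013 to 2605 FPKM in G799R and none at 0 in any library. Of 26 distal tubule and collecting duct markers 25 were lower on that scale (median -2.04), beside 19.3% of all tested genes called lower. The 26 summed to 1562 to 2287 FPKM in wild type and 211 to 609.6 FPKM in G799R. With glomerular markers set equal 26 were lower, beside 69.6% of all tested genes. With proximal tubule markers set equal 0 were lower and 14 higher (median 0.57), beside 97.6% of all tested genes called higher (median 2.78). In bulk tissue fewer cells of a type and less RNA per cell cannot be told apart. Markers of the glomerulus moved the other way on the deposited scale. There 22 of 22 podocyte, 14 of 18 endothelial and 10 of 16 mesangial markers were higher, beside 40.5% of all tested genes. With glomerular markers set equal, a scale set by these lists, 5 podocyte, 3 endothelial and 3 mesangial markers were higher. In the same order 3, 2 and 4 were lower. With proximal tubule markers set equal 22, 18 and 16 were higher, beside 97.6% of all tested genes. Nphs1, a slit diaphragm protein, was at 255 ± 19.4 FPKM in wild type and 401 ± 46.1 FPKM in G799R as deposited (SD, n = 5). The labelled tissue therefore had its defining podocyte genes in every library, together with tubule RNA.

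Among the remaining lists, 9 of 15 myeloid markers were higher in G799R on the deposited scale (median log2 difference 0.88). With glomerular markers set equal 3 of 15 were higher (median 0.23), and with proximal tubule markers set equal 15 of 15. Of all tested genes 40.5%, 3.05% and 97.6% were called higher on these scales, in that order. All 12 interferon response genes were higher on each of these scales. They summed to 81.05 to 168 FPKM in wild type and 301 to 3293 FPKM in G799R, with G799R libraries 3 and 4 apart from the others. The part of both in the results was not tested. Without G799R libraries 3 and 4, 19 of 20 mitochondrial genes, 2 of 2 regulators and 7 of 8 peroxisomal enzymes were called lower. So were 3 of 10 peroxins, beside 2274 of all 13143 genes tested in that fit. Adipocyte markers were near 0 and summed to at most 0.965 FPKM per library, with 5 to 9 of 10 at 0. Col4a3 itself was at 138 ± 13.6 FPKM in wild type and 213 ± 12.4 in G799R, a level that does not show the amino acid change and so does not check the labels. Summed FPKM ran from 320720 to 340875 per library; the labels state no read totals, and the steps between low values put the depth of the libraries at about 0.861 to 1.19 times that of wild-type library 1.

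Entry of fatty acids into mitochondria was represented by 3 carnitine acyltransferases. Cpt1a (ENSMUSG00000024900), which forms acylcarnitines at the outer membrane and is the rate-controlling step of entry, was measured at 97.2, 89.5, 76.4, 101 and 84.1 FPKM in wild-type libraries 1 to 5 and 65.4, 56.2, 68.4, 54.8 and 65.7 FPKM in G799R libraries 1 to 5. The groups did not overlap, and Cpt1a was 1.44-fold lower in G799R (log2 difference -0.52 ± 0.092 SE, limma adjusted p = 6.4e-04). Cpt2, which turns acylcarnitines back into acyl-CoA inside, ranged from 20.4 to 31.8 FPKM in wild type and 12.1 to 15.1 FPKM in G799R and was 1.89-fold lower (log2 difference -0.86 ± 0.11 SE, limma adjusted p = 5.9e-05). Crat, the acyltransferase for short chains, was measured at 27.4, 31.3, 26.6, 34.5 and 29.6 FPKM in wild-type libraries 1 to 5 and 26.97, 14.9, 17.4, 14.6 and 16.96 FPKM in G799R libraries 1 to 5. G799R library 1 was at the level of wild-type libraries 1 and 3, so the groups overlapped, and the other G799R libraries lay below all wild-type libraries. Crat was 1.64-fold lower (log2 difference -0.72 ± 0.15 SE, limma adjusted p = 0.0016).

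The acyl-CoA dehydrogenases, which start each round and differ in the chain length they prefer, fell together. Acadm (ENSMUSG00000062908), the medium-chain enzyme and one of the 3 most abundant members, was measured at 93.5, 142, 111, 149 and 125 FPKM in wild-type libraries 1 to 5 and 58.6, 54.7, 61.7, 55.04 and 51.6 FPKM in G799R libraries 1 to 5. Every G799R library lay below every wild-type library, and the wild-type libraries spread more widely than the G799R libraries. Acadm was 2.203-fold lower (log2 difference -1.11 ± 0.12 SE, limma adjusted p = 1.8e-05). The very long-chain enzyme Acadvl ranged from 65.7 to 81.1 FPKM in wild type and 38.1 to 43.4 FPKM in G799R (1.73-fold lower), the long-chain enzyme Acadl from 57.2 to 73.6 FPKM in wild type and 35.5 to 40.4 FPKM in G799R (1.66-fold lower), and the short-chain enzyme Acads from 31.9 to 46.4 FPKM in wild type and 17.8 to 22.3 FPKM in G799R (1.903-fold lower). Acad10 and Acad11, less studied members of the family, had the larger differences: Acad10 ranged from 10.3 to 18.1 FPKM in wild type and 4.59 to 6.43 FPKM in G799R and was 2.59-fold lower, and Acad11 ranged from 28.3 to 48.1 FPKM in wild type and 9.36 to 13.4 FPKM in G799R and was 3.43-fold lower. The groups did not overlap for any of the 6 dehydrogenases, and their limma adjusted p-values ran from 3.6e-06 for Acad11 to 3.6e-05 for Acads. Without Acad10 and Acad11 the mitochondrial median was -0.88.

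The 2 subunits of the mitochondrial trifunctional protein, which carries out the later steps for long chains, showed the smallest mitochondrial differences. Hadha (ENSMUSG00000025745), the alpha subunit with hydratase and dehydrogenase activity, was measured at 41.7, 44.5, 47.2, 46.5 and 45.9 FPKM in wild-type libraries 1 to 5 and 39.9, 40.7, 40.2, 38.98 and 42.7 FPKM in G799R libraries 1 to 5. Wild-type library 1 fell within the G799R range, so the groups overlapped. Hadha was 1.11-fold lower (log2 difference -0.15 ± 0.054 SE, limma adjusted p = 0.031), and its call did not hold with a replicate block (adjusted p = 0.071), without G799R libraries 3 and 4 (adjusted p = 0.12), or when any single library other than wild-type library 1 or G799R library 5 was left out (adjusted p from 0.051 to 0.071). Hadhb (ENSMUSG00000059447), the beta subunit with the thiolase, was measured at 77.8, 85.6, 91.1, 88.9 and 88.7 FPKM in wild-type libraries 1 to 5 and 69.1, 63.7, 61.97, 62.5 and 67.02 FPKM in G799R libraries 1 to 5. The groups did not overlap, and Hadhb was 1.33-fold lower (log2 difference -0.41 ± 0.061 SE, limma adjusted p = 2.1e-04).

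Hadha and Hadhb are transcribed away from each other from a shared stretch of mouse chromosome 5, and their sequence is shown because the pair moved least of the mitochondrial genes. Sequences here are RefSeq promoter windows on GRCm38.p6, each 300 bases long and running from 250 bases before to 50 bases after the start site; for the deposited values a build is not given in the sources used here, and no coordinate was taken from them. The window of Hadhb (chr5:30155003-30155302, plus strand) shares 228 bases with that of Hadha (chr5:30154931-30155230, minus strand). The shared bases, chr5:30155003-30155230, are in capitals.
Hadhb: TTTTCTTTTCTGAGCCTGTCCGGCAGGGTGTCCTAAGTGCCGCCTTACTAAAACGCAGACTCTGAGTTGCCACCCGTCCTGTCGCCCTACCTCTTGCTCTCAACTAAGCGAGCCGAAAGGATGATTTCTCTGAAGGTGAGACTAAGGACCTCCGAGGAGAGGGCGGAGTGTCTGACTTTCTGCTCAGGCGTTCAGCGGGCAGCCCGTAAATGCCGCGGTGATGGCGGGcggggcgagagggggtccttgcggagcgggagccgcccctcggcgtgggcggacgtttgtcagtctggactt

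Hadh (ENSMUSG00000027984), the separate dehydrogenase for medium and short chains and the member with the highest wild-type level, was measured at 108, 139, 111, 163 and 135 FPKM in wild-type libraries 1 to 5 and 49.3, 45.8, 40.3, 38.8 and 42.5 FPKM in G799R libraries 1 to 5. The lowest wild-type library was far above the highest G799R library. Hadh was 3.02-fold lower (log2 difference -1.56 ± 0.11 SE, limma adjusted p = 2.2e-06). Echs1, the hydratase for short chains, ranged from 48.9 to 72.5 FPKM in wild type and 19.9 to 27.5 FPKM in G799R and was 2.46-fold lower (log2 difference -1.26 ± 0.12 SE, limma adjusted p = 7.9e-06).

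Thiolases end each round by releasing acetyl-CoA. Acat1 (ENSMUSG00000032047), which acts on acetoacetyl-CoA and also serves ketone body use and isoleucine breakdown, was measured at 72.7, 96.4, 72.8, 123 and 88.8 FPKM in wild-type libraries 1 to 5 and 32.7, 32.9, 32.5, 28.3 and 29.4 FPKM in G799R libraries 1 to 5. Wild-type library 4 was the highest, and no library of one group reached the other. Acat1 was 2.91-fold lower (log2 difference -1.49 ± 0.13 SE, limma adjusted p = 5.6e-06). Acaa2, the medium-chain thiolase, ranged from 70.8 to 86.9 FPKM in wild type and 35.8 to 48.7 FPKM in G799R and was 1.89-fold lower (log2 difference -0.91 ± 0.098 SE, limma adjusted p = 2.1e-05). Unsaturated fatty acids need auxiliary enzymes: Decr1, a dienoyl-CoA reductase, ranged from 28.2 to 31.7 FPKM in wild type and 14.8 to 16.3 FPKM in G799R and was 1.97-fold lower (log2 difference -0.93 ± 0.058 SE, limma adjusted p = 1.8e-06). Eci1, an enoyl-CoA isomerase, ranged from 24.7 to 29.3 FPKM in wild type and 16.5 to 21.4 FPKM in G799R and was 1.41-fold lower (log2 difference -0.48 ± 0.077 SE, limma adjusted p = 3.4e-04).

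Electrons from the acyl-CoA dehydrogenases pass to the electron transfer flavoprotein, made of Etfa and Etfb, and from there through Etfdh to ubiquinone. Etfa (ENSMUSG00000032314) was measured at 69.7, 96.3, 75.8, 116 and 81.1 FPKM in wild-type libraries 1 to 5 and 38.8, 38.2, 34.2, 32.2 and 36.3 FPKM in G799R libraries 1 to 5. Etfb (ENSMUSG00000004610) was measured at 114, 133, 115, 149 and 132 FPKM in wild-type libraries 1 to 5 and 79.5, 69.8, 57.7, 68.04 and 69.8 FPKM in G799R libraries 1 to 5. For both, the groups did not overlap, and wild-type library 4 was the highest. Etfa was 2.44-fold lower (log2 difference -1.24 ± 0.12 SE, limma adjusted p = 1.3e-05) and Etfb was 1.86-fold lower (log2 difference -0.89 ± 0.098 SE, limma adjusted p = 2.5e-05). Etfdh ranged from 34.8 to 44.7 FPKM in wild type and 21.6 to 24.1 FPKM in G799R and was 1.76-fold lower (log2 difference -0.78 ± 0.074 SE, limma adjusted p = 9.0e-06). Across the 20 genes listed as mitochondrial the G799R mean stood between 29.1% (Acad11) and 89.7% (Hadha) of the wild-type mean, with a median of 52.9%. Without Acad10 and Acad11 the lowest was 33.1% (Hadh).

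**Figure D2:**
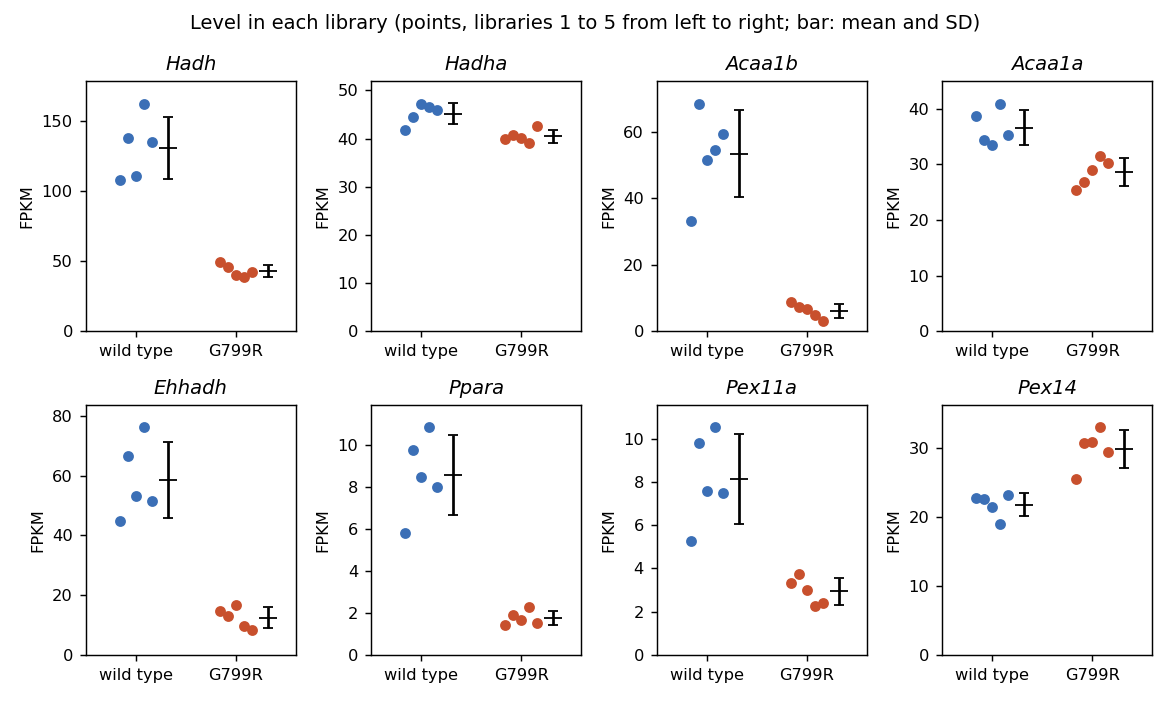
FPKM of 8 genes in each library (points, libraries 1 to 5 from left to right in each group; bar, mean ± SD), with each axis starting at 0. Acaa1b, Ehhadh, Hadh and Ppara are separated by wide gaps, Pex11a and Acaa1a by narrower ones, and Hadha overlaps between the groups. Pex14 is higher in all 5 G799R libraries on this deposited scale, a direction that turns with glomerular markers set equal.

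Both regulators were low in level and lower in G799R. Ppara (ENSMUSG00000022383), which encodes the receptor PPAR alpha, was measured at 5.78, 9.73, 8.46, 10.8 and 8.01 FPKM in wild-type libraries 1 to 5 and 1.45, 1.88, 1.68, 2.28 and 1.51 FPKM in G799R libraries 1 to 5. The groups were well apart, and Ppara was 4.86-fold lower (log2 difference -1.78 ± 0.15 SE, limma adjusted p = 3.7e-06). Ppargc1a (ENSMUSG00000029167), which encodes PGC-1 alpha, was measured at 5.62, 8.200000, 8.92, 11.02 and 9.31 FPKM in wild-type libraries 1 to 5 and 2.23, 3.71, 2.42, 0.888 and 4.63 FPKM in G799R libraries 1 to 5. G799R library 4 was the lowest and G799R library 5 the highest of its group, below wild-type library 1. Ppargc1a was 3.101-fold lower (log2 difference -1.42 ± 0.26 SE, limma adjusted p = 9.0e-04).

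The peroxisomal enzymes spread further than the mitochondrial ones, from no detectable change to the largest fold of the 40 genes. Acyl-CoA oxidases open the peroxisomal rounds. Acox2 (ENSMUSG00000021751), which acts on branched chains and bile acid intermediates, was measured at 3.95, 12.5, 6.697, 2.94 and 5.89 FPKM in wild-type libraries 1 to 5 and 0.246, 0.551, 1.14, 0.392 and 0.332 FPKM in G799R libraries 1 to 5. The G799R libraries were near the bottom of the range and the wild-type libraries differed among themselves, with library 2 the highest. Acox2 was 12.01-fold lower on the FPKM scale (log2 difference -2.17 ± 0.29 SE, limma adjusted p = 9.4e-05); the log2 difference is smaller than the FPKM fold because 1 is added to low values. Acox3, a further branched-chain oxidase, ranged from 46.6 to 82.3 FPKM in wild type and 23.8 to 33.4 FPKM in G799R and was 2.27-fold lower (log2 difference -1.13 ± 0.16 SE, limma adjusted p = 1.5e-04).

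The middle steps are carried out by multifunctional enzymes. Ehhadh (ENSMUSG00000022853), the L-bifunctional enzyme known for dicarboxylic acids, was measured at 44.7, 66.7, 53.2, 76.1 and 51.6 FPKM in wild-type libraries 1 to 5 and 14.7, 12.9, 16.5, 9.78 and 8.25 FPKM in G799R libraries 1 to 5. The groups were separated by a gap larger than the G799R range, and Ehhadh was 4.7005-fold lower (log2 difference -2.16 ± 0.19 SE, limma adjusted p = 5.3e-06). Hsd17b4, the D-bifunctional enzyme, ranged from 48.3 to 62.5 FPKM in wild type and 28.4 to 35.8 FPKM in G799R and was 1.73-fold lower (log2 difference -0.77 ± 0.085 SE, limma adjusted p = 2.7e-05). For unsaturated chains, Decr2, a peroxisomal reductase, ranged from 10.6 to 17.7 FPKM in wild type and 3.53 to 5.35 FPKM in G799R and was 2.73-fold lower (log2 difference -1.27 ± 0.14 SE, limma adjusted p = 2.3e-05). Eci2 (ENSMUSG00000021417), an isomerase found in peroxisomes and mitochondria, was measured at 42.1, 42.5, 36.8, 43.7 and 36.3 FPKM in wild-type libraries 1 to 5 and 44.7, 34.1, 36.3, 40.9 and 42.2 FPKM in G799R libraries 1 to 5. The groups overlapped throughout, and the difference of Eci2 did not pass the test (log2 difference -0.026 ± 0.087 SE, limma adjusted p = 0.81).

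The thiolase pair Acaa1a and Acaa1b differed most from each other. Acaa1b (ENSMUSG00000010651) was measured at 33.1, 68.4, 51.4, 54.4 and 59.4 FPKM in wild-type libraries 1 to 5 and 8.64, 7.17, 6.800000, 4.896 and 3.201 FPKM in G799R libraries 1 to 5. Acaa1a (ENSMUSG00000036138) was measured at 38.7, 34.4, 33.5, 40.9 and 35.4 FPKM in wild-type libraries 1 to 5 and 25.4, 26.9, 28.97, 31.4 and 30.3 FPKM in G799R libraries 1 to 5. Neither gene's groups overlapped, but the gap was wide for Acaa1b and narrow for Acaa1a. Acaa1b was 8.68-fold lower (log2 difference -2.95 ± 0.23 SE, limma adjusted p = 3.2e-06) and Acaa1a was 1.28-fold lower (log2 difference -0.34 ± 0.078 SE, limma adjusted p = 0.0029). The 2 genes are near copies, so the authors' counting may have split reads between them, and each level is uncertain to that extent.

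Their promoter windows are shown because 2 genes for nearly the same enzyme differed between the groups by such unequal amounts. Whether the windows have a part in this was not tested. Both lie on chromosome 9: Acaa1a at chr9:119341044-119341343, plus strand, and Acaa1b at chr9:119157044-119157343, minus strand. In a global alignment, in which gaps may be placed to gain matches, 153 bases were identical, 51.0% of the 300-base window. Capitals mark the GC box, searched as GGGCGG on both strands, which was found 3 times in the Acaa1a window and not in the Acaa1b window.
Acaa1a: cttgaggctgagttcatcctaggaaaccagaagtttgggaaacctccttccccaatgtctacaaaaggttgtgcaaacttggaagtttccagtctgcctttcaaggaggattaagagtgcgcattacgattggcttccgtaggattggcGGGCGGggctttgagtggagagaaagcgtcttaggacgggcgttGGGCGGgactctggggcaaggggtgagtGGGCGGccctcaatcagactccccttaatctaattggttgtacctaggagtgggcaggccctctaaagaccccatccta
Acaa1b: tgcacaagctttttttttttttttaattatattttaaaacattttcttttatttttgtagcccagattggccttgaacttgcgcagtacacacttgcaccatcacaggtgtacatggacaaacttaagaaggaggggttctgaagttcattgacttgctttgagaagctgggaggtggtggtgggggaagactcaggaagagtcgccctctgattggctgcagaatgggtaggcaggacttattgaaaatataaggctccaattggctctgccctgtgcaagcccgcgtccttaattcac

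Peroxins assemble the organelle. On the deposited scale 2 of the 10 were called lower, 1 was called higher and 7 were not called. Of all tested genes 19.3% were called lower and 40.5% higher on that scale, so the count of lower peroxins is near the share of all genes. Pex11a (ENSMUSG00000030545), which promotes elongation and division of peroxisomes, was measured at 5.27, 9.800000, 7.603, 10.5 and 7.51 FPKM in wild-type libraries 1 to 5 and 3.31, 3.74, 2.98, 2.25 and 2.395 FPKM in G799R libraries 1 to 5. The groups did not overlap, and Pex11a was 2.77-fold lower (log2 difference -1.199 ± 0.17 SE, limma adjusted p = 1.3e-04). Pex5 (ENSMUSG00000005069), the import receptor for most matrix enzymes, was measured at 15.5, 15.3, 13.02, 14.5 and 14.4 FPKM in wild-type libraries 1 to 5 and 11.7, 12.9, 10.9, 11.01 and 11.2 FPKM in G799R libraries 1 to 5. G799R library 2 came close to wild-type library 3 without reaching it, and Pex5 was 1.26-fold lower (log2 difference -0.31 ± 0.070 SE, limma adjusted p = 0.003).

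Pex14 (ENSMUSG00000028975), the membrane docking partner of Pex5, was measured at 22.7, 22.5, 21.4, 18.9 and 23.1 FPKM in wild-type libraries 1 to 5 and 25.4, 30.6, 30.8, 32.9 and 29.4 FPKM in G799R libraries 1 to 5. Every G799R library lay above every wild-type library. Pex14 was 1.37-fold higher on the deposited scale (log2 difference 0.44 ± 0.080 SE, limma adjusted p = 7.8e-04), and its log2 difference was 0.27 with median-of-ratios scaling and -0.21 (adjusted p = 0.066) with glomerular markers set equal, where the direction turned.

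Of the 7 peroxins that did not pass the test, Pex2, a ring-finger protein of the export complex, ranged from 15.95 to 16.9 FPKM in wild type and 12.7 to 16.5 FPKM in G799R (log2 difference -0.17 ± 0.069 SE, limma adjusted p = 0.057). Pex13, a docking protein, ranged from 8.32 to 11.8 FPKM in wild type and 6.98 to 9.12 FPKM in G799R (log2 difference -0.23 ± 0.099 SE, limma adjusted p = 0.066). Pex2 passed without G799R library 4 (limma adjusted p = 0.02) and when G799R libraries 3 and 4 were both left out (0.03), and Pex13 passed without G799R library 1 (adjusted p = 0.039) and without wild-type library 1 (adjusted p = 0.041). Pex10, the second ring-finger protein listed, had a log2 difference of 0.072, and Pex6, an ATPase that recycles Pex5, one of 0.070. The membrane assembly factors Pex3, Pex16 and Pex19 had log2 differences of 0.085, -0.13 and -0.013. Pex19 was the steadiest, at 35.2 to 36.4 FPKM in wild type and 33.98 to 35.9 FPKM in G799R. With median-of-ratios scaling Pex2, Pex13 and Pex19 were called lower too (5 of 10 peroxins), beside 3341 of all 13117 tested genes. With quantile normalisation Pex2 and Pex19 were called lower too (4 of 10), beside 2731 of 13117. With glomerular markers set equal 9 of 10 peroxins were called lower and 0 higher, beside 69.6% and 3.05% of all tested genes.

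The promoter windows of Pex11a (chr7:79743082-79743381, minus strand) and Pex14 (chr4:149099794-149100093, minus strand) are shown because these peroxins moved in opposite directions on the deposited scale. Each holds 1 GC box, in capitals.
Pex11a: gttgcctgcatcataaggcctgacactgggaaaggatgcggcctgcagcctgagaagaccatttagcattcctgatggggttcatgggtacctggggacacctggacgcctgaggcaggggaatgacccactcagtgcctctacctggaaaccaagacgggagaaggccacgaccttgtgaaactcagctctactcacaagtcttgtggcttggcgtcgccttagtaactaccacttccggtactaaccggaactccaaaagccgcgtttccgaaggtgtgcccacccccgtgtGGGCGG
Pex14: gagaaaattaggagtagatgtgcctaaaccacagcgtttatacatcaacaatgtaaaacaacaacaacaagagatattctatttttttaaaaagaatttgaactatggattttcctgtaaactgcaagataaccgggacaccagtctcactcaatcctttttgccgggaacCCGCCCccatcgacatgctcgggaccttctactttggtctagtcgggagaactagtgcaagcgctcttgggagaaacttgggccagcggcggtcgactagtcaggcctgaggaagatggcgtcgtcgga

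RefSeq windows were matched for 33 of the 40 genes, 37 windows in all; none was matched for Hsd17b4, Acat1, Decr1, Pex19, Pex2, Crat and Acaa2. Motifs were searched on both strands among 32851 promoter windows of the same length. The direct repeat bound by PPAR with RXR, searched as AGGNCANAGGNCA, was in 0 of 37 windows and in 0.381% of all windows. The element of estrogen-related receptors, searched as TNAAGGTCA, was in 0 of 37 and in 1.28% of all. The nuclear receptor half-site AGGTCA, which both longer patterns can hold, was in 4 of 37 windows (10.8%, against 16.3% of all), those of Acadm, Acadvl, Cpt1a and Echs1. The GC box was in 26 of 37 windows (70.3%, against 35.7% of all), the CCAAT box in 14 (37.8%, against 37.4%), and the TATA box, searched as TATAAA, in 2 (5.41%, against 13.6%), those of Pex14 and Pex16. The median GC content was 60.3% in the 37 windows and 52.7% in all. Some windows overlap, those of Hadha and Hadhb and some of Pex5, so a match that they share was counted in each. The windows compared with were not limited to genes tested here. These matches are descriptions of short windows, and no match says only that the letters are not there. The Cpt1a window (chr19:3323051-3323350, plus strand) and the Acadvl window (chr11:70015379-70015678, minus strand) are printed with the half-site in capitals as 2 of the 4 that hold it.
Cpt1a: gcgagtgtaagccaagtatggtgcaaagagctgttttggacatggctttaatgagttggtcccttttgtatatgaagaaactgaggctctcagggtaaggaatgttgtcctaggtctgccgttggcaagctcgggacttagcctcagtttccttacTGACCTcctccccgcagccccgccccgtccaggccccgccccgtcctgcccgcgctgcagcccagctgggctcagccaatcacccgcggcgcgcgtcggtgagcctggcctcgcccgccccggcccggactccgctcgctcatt
Acadvl: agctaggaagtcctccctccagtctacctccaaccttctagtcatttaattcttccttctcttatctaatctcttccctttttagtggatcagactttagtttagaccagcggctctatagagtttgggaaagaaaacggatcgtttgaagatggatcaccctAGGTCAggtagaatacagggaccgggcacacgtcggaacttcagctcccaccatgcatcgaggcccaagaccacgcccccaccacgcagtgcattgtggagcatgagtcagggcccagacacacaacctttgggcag

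Unequal change within the pathway was measured as the FPKM ratio of 2 genes within each library, which no scaling of whole libraries alters. All 12 pairs were chosen after the levels had been seen, so the tests describe these pairs (exact two-sided permutation test, 5 against 5 libraries, adjusted over the 12 pairs). The ratio of Hadh to Hadha, the free dehydrogenase over the trifunctional protein, ranged from 2.35 to 3.499 in wild type and 0.995 to 1.23 in G799R. The ratio of Hadhb to Hadha, subunits of 1 complex, ranged from 1.87 to 1.93 in wild type and 1.54 to 1.73 in G799R. Both ratios were lower in all 5 G799R libraries. The ratio of Etfa to Etfb ranged from 0.613 to 0.776 in wild type and 0.474 to 0.593 in G799R, and that of Acat1 to Acaa2 from 0.968 to 1.43 in wild type and 0.605 to 0.921 in G799R. These too did not overlap. Among peroxisomal genes, Acaa1b to Acaa1a ranged from 0.853 to 1.99 in wild type and 0.106 to 0.3398 in G799R, and Ehhadh to Hsd17b4 from 0.889 to 1.22 in wild type and 0.248 to 0.583 in G799R. The isomerase ratio Eci1 to Eci2 ranged from 0.576 to 0.808 in wild type and 0.404 to 0.567 in G799R. Among peroxins, Pex11a to Pex19 ranged from 0.145 to 0.294 in wild type and 0.06295 to 0.11001 in G799R, Pex5 to Pex14 from 0.609 to 0.764 in wild type and 0.334 to 0.462 in G799R and Pex14 to Pex13 from 1.599 to 2.73 in wild type and 2.79 to 4.41 in G799R; the last was the one ratio that was higher in G799R.

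For each of these 10 ratios the groups did not overlap and the exact permutation test gave p = 0.0079, the smallest that 5 against 5 libraries allow (adjusted p = 0.0095). How often other pairs of genes separate the groups was not measured. Among single genes every G799R library lay below in 15.7% of all tested genes and above in 26.1%. The pairs were picked by their levels, so these p-values are no evidence about the pathway as a whole. The groups overlapped for Acadm to Acadvl, at 1.42 to 1.995 in wild type and 1.19 to 1.602 in G799R, and for Cpt2 to Cpt1a, at 0.254 to 0.318 in wild type and 0.184 to 0.259 in G799R, each with an exact permutation p of 0.024 (adjusted p = 0.024). The ratio of Cpt2 to Cpt1a no longer passed without G799R libraries 3 and 4 (log2 ratio difference -0.44, exact permutation p = 0.071). The tubule markers differed between the same libraries, and their part in these ratios was not tested.

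**Figure D3:**
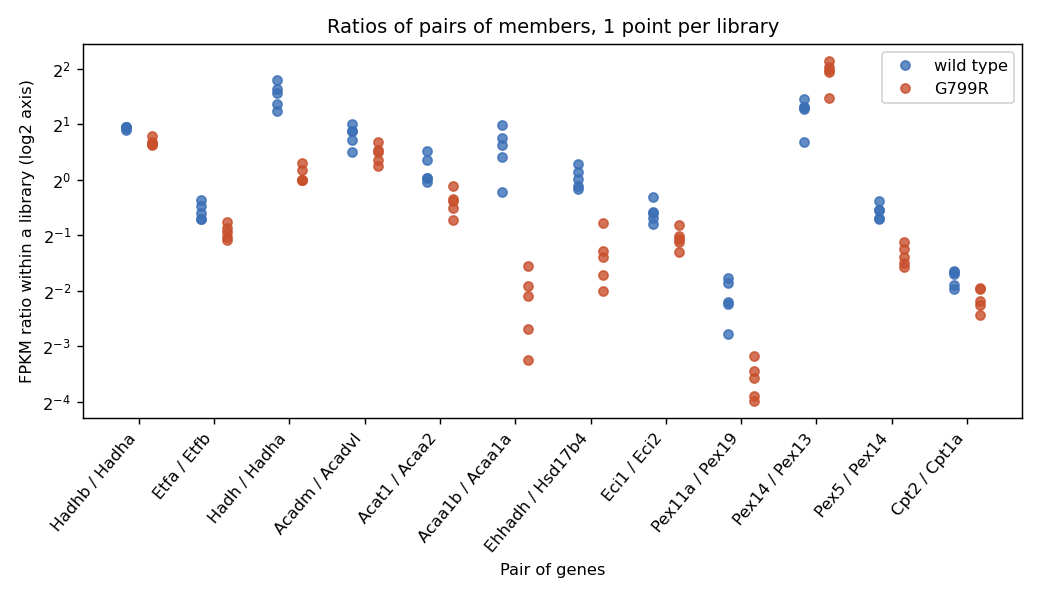
FPKM ratios of 12 gene pairs within each library, on a log2 axis, with 1 point per library. The pairs were chosen after the levels had been seen. In 10 pairs the groups do not overlap, and Pex14 to Pex13 is the pair that is higher in G799R.

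The order of the libraries within a group followed the proximal tubule score in wild type. The summed FPKM of the 20 mitochondrial genes was 1139.6, 1366, 1175, 1529.6 and 1306 in wild-type libraries 1 to 5 and 722, 675, 668, 627 and 685 in G799R libraries 1 to 5. The proximal tubule score, the mean log2(FPKM + 1) of the proximal tubule markers, was 6.48, 6.95, 6.61, 7.22 and 6.91 in wild type and 4.47, 4.52, 4.38, 4.12 and 3.63 in G799R. In wild type both put library 4 first, then 2, 5, 3 and 1. The same score of the distal tubule and collecting duct markers gave another order, at 4.35, 4.80, 5.03, 4.97 and 5.15 in wild-type libraries 1 to 5. Wild-type library 4 held the highest value of its group in 16 of the 20 genes and library 1 the lowest in 13. In G799R, library 5 had the lowest proximal tubule score, whereas library 4 had the lowest sum of the mitochondrial genes and the lowest value in 12 of 20 genes. The summed peroxins did not separate the groups, at 141 to 149 FPKM in wild type and 139 to 149 FPKM in G799R.

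**Figure D4:**
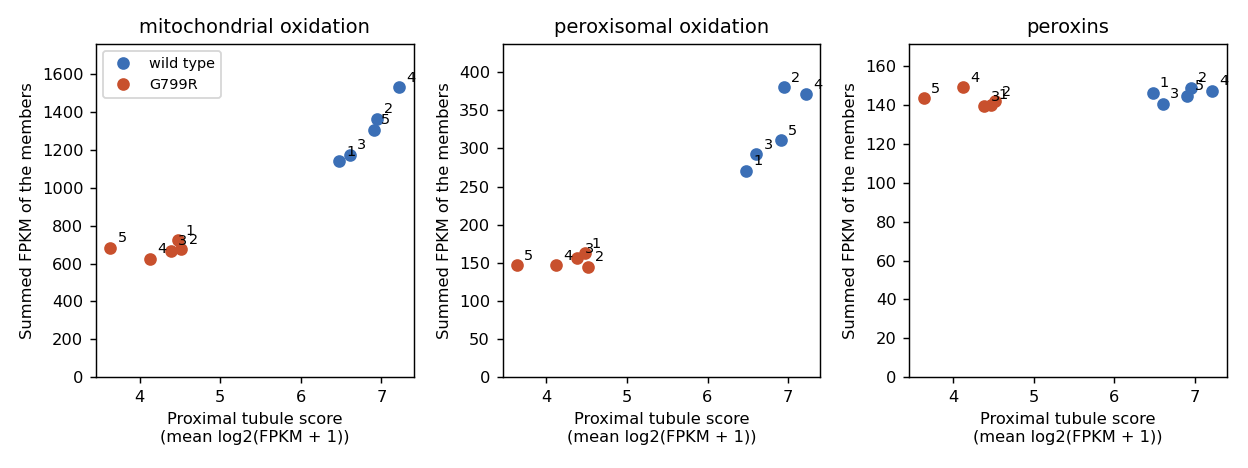
Summed FPKM of the mitochondrial genes, peroxisomal enzymes and peroxins against the proximal tubule score of the same library, with library numbers beside the points. The wild-type libraries are higher on both axes for the enzymes, while the peroxin sums of the groups overlap.

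The same fit was repeated on 2 other scales. With glomerular markers (podocyte, endothelial and mesangial lists) set equal in all libraries, 20 of 20 mitochondrial genes, 2 of 2 regulators, 8 of 8 peroxisomal enzymes and 9 of 10 peroxins were called lower, beside 69.6% of all tested genes called lower and 3.05% called higher. Acaa1b was then at a log2 difference of -3.59, Hadh at -2.21 and Eci2 at -0.67. With proximal tubule markers set equal, 97.6% of all tested genes were called higher and 0.152% lower. On that scale 20 of 20 mitochondrial genes, 2 of 2 regulators, 5 of 8 peroxisomal enzymes and 10 of 10 peroxins were called higher by limma and none of the 40 lower, also at an unadjusted p under 0.05. The 3 that were not called were Acaa1b, at a log2 difference of -0.34, Acox2, at 0.44, and Ehhadh, at 0.45. Acaa1b alone of the 40 was below 0, so relative to the tubule markers Acaa1b kept its sign but not its call (adjusted p = 0.18). Hadha stood at 2.45 and Hadh at 1.04 on the same scale. With the proximal tubule score as a covariate, limma called 0 of 13117 genes, 914 had an unadjusted p under 0.05, and the median standard error rose from 0.109 to 0.452; 1 of the 40 members, Decr1, had an unadjusted p under 0.05. Genotype and tubule score are nearly the same split of the libraries, so their shares in a difference cannot be told apart.

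**Figure D5:**
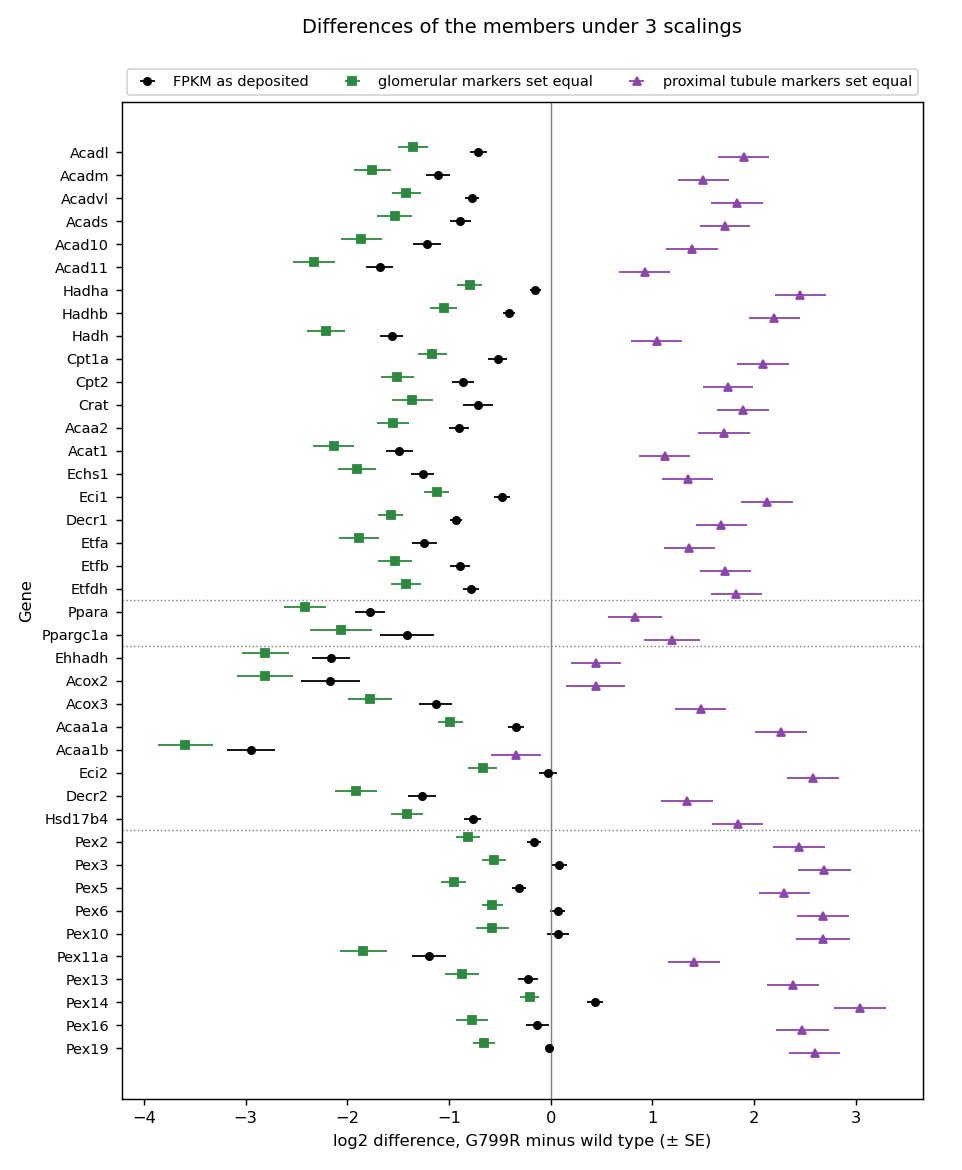
Log2 differences (G799R minus wild type, ± SE, n = 5 libraries a group) of the 40 genes with FPKM as deposited (circles), with glomerular markers set equal (squares) and with proximal tubule markers set equal (triangles). All 40 squares lie below 0, and all triangles except that of Acaa1b lie above it.

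Further genes of these pathways were read from the same fit, in lists chosen by function. Their counts stand beside the shares of all tested genes given for each scale: 19.3% lower and 40.5% higher as deposited, 69.6% lower and 3.05% higher with glomerular markers set equal, and 0.152% lower and 97.6% higher with proximal tubule markers set equal. Of 30 other mitochondrial oxidation genes, 18 fell and 7 rose on the deposited scale (median log2 difference -0.47; with glomerular markers set equal 25 lower and 0 higher, with proximal tubule markers set equal 0 lower and 29 higher). Those with the smallest p were Gcdh, a dehydrogenase of lysine breakdown (63.8 ± 15.9 against 13.3 ± 0.724 FPKM, SD, n = 5), Oxct1, which activates ketone bodies (181 ± 20.7 against 66.98 ± 6.96 FPKM), the carnitine transporter Slc22a5 (51.4 ± 7.19 against 19.2 ± 1.702 FPKM) and Ivd, a dehydrogenase of leucine breakdown (24.5 ± 4.38 against 8.54 ± 0.656 FPKM), with limma adjusted p-values of 1.9e-06, 1.9e-06, 2.1e-06 and 3.4e-06.

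Of 14 tested genes of fatty acid uptake and binding, 9 fell and 5 rose (median -0.59; with glomerular markers set equal 10 lower and 0 higher, with proximal tubule markers set equal 0 lower and 11 higher). The smallest p belonged to Slc27a2, an acyl-CoA synthetase and transporter (523 ± 126 against 73.5 ± 19.9 FPKM), the acyl-CoA binding protein Dbi (164 ± 31.3 against 56.01 ± 6.52 FPKM) and the fatty acid binding proteins Fabp1 and Fabp3 (23.2 ± 6.33 against 4.66 ± 1.84 FPKM), with limma adjusted p-values of 2.2e-06, 6.7e-06, 1.7e-05 and 2.1e-05. Fabp1 averaged 5.94 FPKM in wild type and was listed at 0 in 4 of the 5 G799R libraries. It thus passed the filter on low values through its wild-type level, so its call is no support for a direction. The 5 that rose were Slc27a3, the lipases Lipe and Pnpla2, and the binding proteins Fabp4 and Fabp5 of adipose, endothelial and other cells. Fabp4 had the highest fold among them (25.5 ± 5.203 against 50.3 ± 21.8 FPKM, limma adjusted p = 0.042), and its groups overlapped.

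Of 40 tested other peroxisomal enzymes and transporters, 32 fell and 2 rose (median -1.09; with glomerular markers set equal 40 lower and 0 higher, with proximal tubule markers set equal 0 lower and 37 higher). The smallest p belonged to the D-amino acid oxidase Dao (49.9 ± 13.6 against 6.46 ± 1.62 FPKM), the fatty acid transporter Abcd3 (62.02 ± 9.63 against 20.3 ± 2.71 FPKM), the D-aspartate oxidase Ddo (7.596 ± 1.24 against 1.45 ± 0.404 FPKM) and the peroxiredoxin Prdx5 (275 ± 58.99 against 86.5 ± 6.78 FPKM), with limma adjusted p-values of 2.1e-06, 2.5e-06, 2.7e-06 and 3.6e-06. Mpv17, a membrane protein, was among those of the list that rose on the deposited scale (33.7 ± 2.45 against 38.1 ± 2.55 FPKM, limma adjusted p = 0.049). The list was drawn up by name, and where in the cell each product lies was not examined. Of 6 tested other peroxins 2 fell, Pex7, the second import receptor (16.4 ± 2.12 against 10.7 ± 1.14 FPKM), and Pex26 (4.61 ± 0.697 against 3.14 ± 0.378 FPKM), with limma adjusted p-values of 7.6e-04 and 0.0047 (with glomerular markers set equal 5 lower and 0 higher, with proximal tubule markers set equal 0 lower and 6 higher).

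Of 21 tested transcriptional regulators outside the 40 genes, 7 fell and 5 rose, beside 19.3% lower and 40.5% higher among all tested genes (median 0.12, against 0.17 for all; with glomerular markers set equal 18 lower and 0 higher, with proximal tubule markers set equal 0 lower and 20 higher). The 20 of 21 on the last of these scales stand beside 97.6% of all genes. The smallest p belonged to the mitochondrial deacetylase Sirt3 (21.4 ± 3.02 against 8.53 ± 0.663 FPKM), Hnf4a, a nuclear receptor of the proximal tubule (71.6 ± 17.7 against 9.47 ± 3.17 FPKM), the estrogen-related receptor Esrrg (8.78 ± 1.76 against 2.699 ± 0.5601 FPKM) and the kinase subunit Prkaa2 (19.2 ± 2.55 against 8.72 ± 1.43 FPKM), with limma adjusted p-values of 2.6e-06, 3.4e-06, 2.2e-05 and 3.1e-05. The receptors Pparg (2.23 ± 0.513 against 4.66 ± 0.903 FPKM) and Ppard (8.82 ± 1.62 against 12.5 ± 1.19 FPKM) rose on the deposited scale, opposite to Ppara, with limma adjusted p-values of 5.0e-04 and 0.0057, as did Prkaa1, Rxrb and Nrf1.

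Of 17 tested genes known as PPAR alpha targets, 11 fell and 3 rose (median -1.15; with glomerular markers set equal 13 lower and 2 higher, with proximal tubule markers set equal 2 lower and 14 higher). Among those that fell, the retinol saturase Retsat was at 35.8 ± 2.85 against 12.6 ± 1.602 FPKM and the acyl-CoA synthetase Acsl1 at 45.7 ± 12.9 against 11.8 ± 2.51 FPKM, with limma adjusted p-values of 1.9e-06 and 3.1e-05. Among those that rose on the deposited scale were Angptl4, an inhibitor of lipoprotein lipase (5.38 ± 2.38 against 16.7 ± 6.96 FPKM), and the uncoupling protein Ucp2 (77.1 ± 23.1 against 159 ± 31.01 FPKM), with limma adjusted p-values of 0.0018 and 7.0e-04. These lists overlap: Acsl1 and Fabp1, for example, each stand in more than 1 list. The limit given above for the call of Fabp1 holds for this list too.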

How the data were processed

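The authors deposited FPKM per gene for 5 wild-type and 5 G799R libraries; total RNA was enriched for mRNA before library preparation, per the labels' protocols. The submitters' processing notes name StringTie 1.3.1, RSEM, HISAT2, Bowtie2 2.2.8 and fastp 0.18.0; for build, annotation and read totals nothing is given in the sources used here. Of 22053 identifiers 21963 matched a symbol. The 13117 genes that averaged 0.5 FPKM or more were fitted as log2(FPKM + 1) by limma 3.58.1 (R 4.3.3) with a mean-variance trend, G799R against wild type, two-sided, with Benjamini-Hochberg adjusted p under 0.05 as the call. The fit was tested on simulated data. Ratios of 2 genes were compared by exact permutation with scipy 1.17.1. Alternatives were other pseudocounts, filters, scalings, a tubule covariate, robust variance, a replicate block and leaving out libraries.

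The 40 genes and all lists were chosen with earlier results of these data known. Named were all 40 genes, up to 4 genes with the smallest p in each further list, up to 5 called against their list's direction, and marker genes; some genes that this rule names are not reported here. Their choice gives no independent evidence of direction. Values after ± are SD over n = 5 libraries unless called SE.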

Additional observations from a re-analysis of the deposited data

Results flagged for a closer look

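In 4 of 80 groups of 5 libraries (40 genes, 2 genotypes), 1 library stood further from the rest than Dixon's 95% limit for 5 values (0.71 of the range); chance alone marks about 1 in 20 groups. Crat was at 26.966 FPKM in G799R library 1, while the other G799R libraries ran from 14.598 to 17.428 FPKM. Pex6 was at 16.972 FPKM in wild-type library 1, against 14.042 to 14.531 FPKM in the others. Pex13 was at 11.829 FPKM in wild-type library 4, against 8.32 to 9.299 FPKM in the others. Pex19 was at 33.979 FPKM in G799R library 2, against 35.586 to 35.886 FPKM in the others. What set these libraries apart was not tested.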

How the results depend on the processing

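Other pseudocounts, other filters and robust variance changed no call of the 40 genes, and leaving out any 1 library changed no count of genes by role by over 1.5 times. Among all genes, median-of-ratios scaling called 3341 lower and 3057 higher, moved the median to 0.023 and the share of higher calls from 67.7% to 47.8%. Glomerular scaling called 9133 lower and 400 higher (median -0.47), proximal tubule scaling 20 lower and 12803 higher (median 2.78), and the tubule covariate 0 and 0 (914 at an unadjusted p under 0.05). Quantile normalisation called 2731 of all genes lower and 4658 higher. Peroxins called lower were 5 with median-of-ratios scaling, 4 with quantile normalisation and 9 with glomerular scaling, where 0 were called higher. With proximal tubule scaling 0 genes of any role were called lower, and 20 mitochondrial genes, 2 regulators, 5 peroxisomal enzymes and 10 peroxins were called higher. With the covariate 0 genes of any role were called.

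Log2 differences changed sign in the following cases, and the cause was not tested. With proximal tubule scaling they were Acox2 0.44, Ehhadh 0.45, Ppara 0.83, Acad11 0.92, Hadh 1.04, Acat1 1.12, Ppargc1a 1.19, Decr2 1.34, Echs1 1.35, Etfa 1.36, Acad10 1.39, Pex11a 1.41, Acox3 1.47, Acadm 1.498, Decr1 1.68, Acaa2 1.700, Acads 1.71, Etfb 1.72, Cpt2 1.74, Etfdh 1.82, Acadvl 1.83, Hsd17b4 1.84, Crat 1.89, Acadl 1.89, Cpt1a 2.08, Eci1 2.13, Hadhb 2.198, Acaa1a 2.26, Pex5 2.297, Pex13 2.38, Pex2 2.44, Hadha 2.45, Pex16 2.47, Eci2 2.58, Pex19 2.59; the medians were 1.72 (mitochondrial), 1.01 (regulators), 1.41 (peroxisomal) and 2.53 (peroxins). With glomerular scaling they were Pex3 -0.56, Pex6 -0.57, Pex10 -0.57 and Pex14 -0.21, with median-of-ratios scaling Pex3 -0.080, Pex6 -0.097 and Pex10 -0.078, and with quantile normalisation Pex6 -0.011. With the covariate they were Acadm 0.083, Acads 0.16, Cpt2 0.22, Crat 0.17, Ehhadh 0.22, Acox3 0.26, Pex3 -0.22, Pex6 -0.53, Pex11a 0.67, Pex13 0.52, Pex16 0.0095. With 1 library left out, Eci2 ran from -0.069 to 0.026 and Pex19 from -0.018 to 0.0017.

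With a replicate block, 2451 genes were called lower and 4937 higher, and of the 40 genes Hadha alone lost its call (adjusted p = 0.071). Libraries with the same number did not deviate together (correlations -0.085 to 0.048), so the numbers were not taken to pair them. Read depth is unknown, so no counting error could be given for low values such as those of Acox2 in G799R.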
